A study of Mus musculus with 2 samples.

Results

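The regions described here are 1038 exonic peaks of open chromatin from CD137+ adipose progenitors of the mouse, chosen as the peaks of the CD137 list that carry the place class exon. They were 1038 of the 14483 peaks in that list and of 22485 in the whole series, and the 730 exonic peaks among the 8002 of the PDGFRα list served for comparison. Peaks came from ATAC-seq, in which a transposase cuts and tags accessible DNA. Both lists hold only peaks that the submitters call unique, by a rule not given in the sources used here, so a peak called in both libraries may be missing from them. The CD137+ DEX library and the CD140+/PDGFRa+ DEX library were 1 sample each. Both populations were adipose progenitors of C57BL/6 mice, obtained by magnetic sorting from SAT or VAT, the subcutaneous and visceral fat depots. The labels give neither the depot nor the number or age of the animals for either library. Both were grown, exposed to an adipogenic cocktail, and then treated with 1 µM dexamethasone, a synthetic glucocorticoid. An untreated library was not analysed here, and the effect of dexamethasone is not measured by these values. The labels' extraction text speaks of the zona pellucida and of embryonic cells, and markers of the early embryo were therefore counted too.

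CD137, the product of Tnfrsf9, is a receptor of the tumour necrosis factor family and a surface marker used for beige fat progenitors. PDGFRα is a receptor tyrosine kinase of stromal and adipocyte progenitors. Open chromatin in a cell marks promoters, enhancers and other sites bound by regulatory proteins. Many genes have several transcription start sites, so the promoter of a shorter transcript can lie inside the span of a longer one, over or beside an exon of it. Peaks labelled exonic can therefore hold a promoter, an enhancer that overlaps an exon, or an exon that is itself accessible.

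The promoter windows below lie inside exonic unique peaks and are shown because they carry the result on internal starts. Each is a RefSeq window of 300 bases on assembly GRCm38.p6 (mm10), from 250 bases before to 50 bases after an annotated start. All 7 are on the plus strand. Capitals mark letters of 6 motifs searched on both strands. The TEAD motif was searched as GGAATG and the AP-1 motif as TGANTCA. For the glucocorticoid receptor the letters were AGAACA, which are a single arm of its site and not the whole site. For the TATA box they were TATAAA and for the GC box GGGCGG, and the CCAAT box was searched as named. The 3 Sgk1 windows lie in the widest exonic peak of the CD137 list, at chr10:21991973-21992272, chr10:21993640-21993939 and chr10:21994416-21994715. Sgk1 encodes a kinase that is a textbook glucocorticoid target.
Sgk1 first window: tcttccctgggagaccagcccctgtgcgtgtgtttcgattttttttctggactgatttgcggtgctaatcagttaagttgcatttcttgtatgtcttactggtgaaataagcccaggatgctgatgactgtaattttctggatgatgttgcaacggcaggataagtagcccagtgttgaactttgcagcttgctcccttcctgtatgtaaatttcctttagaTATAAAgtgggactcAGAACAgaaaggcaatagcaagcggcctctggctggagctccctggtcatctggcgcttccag
Sgk1 middle window: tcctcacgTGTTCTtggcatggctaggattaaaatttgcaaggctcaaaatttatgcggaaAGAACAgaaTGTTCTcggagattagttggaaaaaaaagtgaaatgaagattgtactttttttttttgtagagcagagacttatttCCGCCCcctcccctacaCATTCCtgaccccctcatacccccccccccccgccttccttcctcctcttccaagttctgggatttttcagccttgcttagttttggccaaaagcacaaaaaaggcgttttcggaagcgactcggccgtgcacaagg
Sgk1 last window: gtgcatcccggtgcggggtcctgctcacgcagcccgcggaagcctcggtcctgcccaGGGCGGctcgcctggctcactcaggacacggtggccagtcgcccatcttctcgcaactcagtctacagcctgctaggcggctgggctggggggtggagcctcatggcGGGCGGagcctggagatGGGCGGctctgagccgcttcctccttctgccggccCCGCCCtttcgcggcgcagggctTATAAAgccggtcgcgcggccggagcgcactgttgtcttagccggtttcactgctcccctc
The Pparg window, chr6:115421816-115422115, is an internal start of the gene for PPARγ, the master regulator of fat cell differentiation. The Esrrb window, chr12:86421394-86421693, belongs to an orphan nuclear receptor with 3 exonic peaks. The Bdnf window, chr2:109676782-109677081, belongs to a neurotrophin gene. The Tnfrsf9 window, chr4:150927749-150928048, lies in the PDGFRα list and is shown because the gene encodes CD137 itself.
Pparg (CD137 list): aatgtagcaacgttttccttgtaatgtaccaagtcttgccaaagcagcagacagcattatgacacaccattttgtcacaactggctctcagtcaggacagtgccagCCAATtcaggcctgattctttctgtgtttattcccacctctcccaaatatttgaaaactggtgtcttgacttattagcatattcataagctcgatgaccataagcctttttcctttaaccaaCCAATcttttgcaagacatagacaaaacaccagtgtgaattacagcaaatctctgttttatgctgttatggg
Esrrb (CD137 list): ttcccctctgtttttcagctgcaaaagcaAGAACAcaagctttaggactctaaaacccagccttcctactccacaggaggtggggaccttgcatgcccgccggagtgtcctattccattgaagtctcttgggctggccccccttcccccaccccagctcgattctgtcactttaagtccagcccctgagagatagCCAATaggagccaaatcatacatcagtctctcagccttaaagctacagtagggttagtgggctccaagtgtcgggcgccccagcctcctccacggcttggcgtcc
Bdnf (CD137 list): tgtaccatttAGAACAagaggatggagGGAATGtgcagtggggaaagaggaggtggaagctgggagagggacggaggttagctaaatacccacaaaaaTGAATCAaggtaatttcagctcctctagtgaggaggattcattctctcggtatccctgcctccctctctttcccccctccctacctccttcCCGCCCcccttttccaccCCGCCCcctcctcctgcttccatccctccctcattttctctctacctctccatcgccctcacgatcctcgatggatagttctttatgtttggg
Tnfrsf9 (PDGFRα list): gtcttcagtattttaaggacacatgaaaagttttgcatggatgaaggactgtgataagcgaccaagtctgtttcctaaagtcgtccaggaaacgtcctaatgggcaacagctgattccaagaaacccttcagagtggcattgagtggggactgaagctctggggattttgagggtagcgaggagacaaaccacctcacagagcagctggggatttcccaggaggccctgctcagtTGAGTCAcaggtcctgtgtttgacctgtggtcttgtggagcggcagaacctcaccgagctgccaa
The middle Sgk1 window holds 3 matches to the glucocorticoid receptor motif and 1 to the TEAD motif, and the last one holds 4 GC boxes and a TATA box. The Pparg window holds 2 CCAAT boxes and no other motif of the 6. A match describes the letters only and shows no binding.

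Exonic peaks took a smaller share of the CD137 list than of the PDGFRα list. They made up 7.17% of the CD137 list (Wilson 95% interval 6.76 to 7.60) and 9.12% of the PDGFRα list (8.51 to 9.77), a difference of -1.96 percentage points for CD137 minus PDGFRα (Newcombe 95% interval -2.72 to -1.21). In number the CD137 list still had 1.42 times as many exonic peaks. Counting each Ensembl ID once, 19.1% of the CD137 IDs and 18.9% of the PDGFRα IDs had an exonic peak, a difference of 0.186 points (-1.50 to 1.85), so the lower share rests on peaks and is not seen over IDs. Each population has a single library, so the spread between replicates is not known and no p-values are printed. Read numbers are absent, so depth is unknown. Intervals cover counting error only and treat peaks as independent, although peaks of 1 library share their source.

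The host genes were protein-coding in nearly every case, and most had a single exonic peak. The centre of 999 of the 1038 CD137 exonic peaks lay in a RefSeq protein-coding gene, 10 lay within 5 kb of one, and 29 lay at neither. Of those 39 outside protein-coding genes, 13 lay in a long noncoding RNA gene and 7 in a pseudogene. In the PDGFRα list 701 lay inside, 6 within 5 kb and 23 at neither. The CD137 peaks carried 960 Ensembl IDs, of which 888 had 1 exonic peak, 66 had 2 and 6 had 3 or more. The PDGFRα peaks carried 684 IDs, of which 643 had 1, 37 had 2 and 4 had 3 or more.

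Hosts of CD137 exonic peaks were longer than hosts of PDGFRα exonic peaks. The median span was 86.1 kb over 929 CD137 hosts (interquartile range 35.2 to 163 kb) and 58.9 kb over 660 PDGFRα hosts (30.0 to 125 kb). The median over all 21887 protein-coding genes was 17.2 kb. Hosts of 100 kb or more held 45.2% of the CD137 exonic peaks and 33.5% of the PDGFRα ones, a difference of 11.7 points (7.01 to 16.3). Hosts under 20 kb held 11.4% of the CD137 and 11.8% of the PDGFRα exonic peaks, a difference of -0.429 points (-3.61 to 2.62). Of all exonic peaks of both lists, 58.7% were from the CD137 list. By host length the share was 57.9% under 20 kb, 48.3% at 20 to 50 kb (43.5 to 53.1), 58.0% at 50 to 100 kb, 64.8% at 100 to 300 kb and 68.2% at 300 kb or more (61.3 to 74.4), so it did not climb throughout. Hosts were longer for intronic peaks of the CD137 list too, with a median per peak of 191.9 kb against 159.4 kb in the PDGFRα list, so longer hosts were not seen in exonic peaks alone.

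Among the protein-coding hosts with known symbols, 4 held 3 exonic CD137 peaks each. Frmd4a encodes a FERM domain scaffold protein and spans 596 kb. Its CD137 exonic peaks of 1678, 1369 and 2452 bp lay 281, 363 and 517 kb from its 5′ end, and it had 8 CD137 peaks of any class and no PDGFRα peak. Gldc, the glycine decarboxylase of the glycine cleavage system, had exonic peaks of 1372, 1031 and 1702 bp, which were its only unique peaks in either list. Esrrb had exonic peaks of 1523, 1295 and 2633 bp, the last of them at 97.9% of its span, and no PDGFRα peak. Vps13b, a gene of the bridge-like lipid transfer family, had 3 CD137 exonic peaks and 2 PDGFRα exonic peaks in a span of 560 kb. Of the 62 hosts with 2 CD137 exonic peaks, those with the largest summed widths were Dlc1, Vgll3, Cacna1a, Denn2b, Phldb2 and Mical2.

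Few exonic peaks lay close to the ends of their host, although more lay within 1 kb of one in the CD137 list. The centre lay within 1 kb of either end for 60 of 999 CD137 exonic peaks, 6.01% (4.69 to 7.65), and for 25 of 701 PDGFRα exonic peaks, 3.57% (2.43 to 5.21). The difference was 2.44 points (0.336 to 4.44). It was 0.503 points within 0.5 kb and -0.497 points within 5 kb, with intervals that include 0, and 3.41 points within 2 kb (0.307 to 6.40). Within 10 kb the order was turned, with 38.1% of CD137 (35.2 to 41.2) and 45.2% of PDGFRα exonic peaks (41.6 to 48.9), where an even spread over the same spans gives 35.7% and 41.98%. The higher CD137 share is thus not seen at every distance. The difference within 1 kb was 1.71 points, with an interval that includes 0, when only as many of the widest CD137 exonic peaks as PDGFRα ones were kept. Positions spread evenly over the same spans would place 5.03% of CD137 and 5.35% of PDGFRα exonic peaks within 1 kb of an end. Intronic peaks lay there in 0.206% of cases in the CD137 list and 0.195% in the PDGFRα list. A gene starts and ends in an exon, so the place class itself bears on these low intronic shares. The median distance to the nearest end was 15.8 kb for CD137 and 11.4 kb for PDGFRα exonic peaks. Peaks at gene ends also fall into the flanking classes up5k and down5k, so the exonic class holds only part of them.

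**Figure D1:**
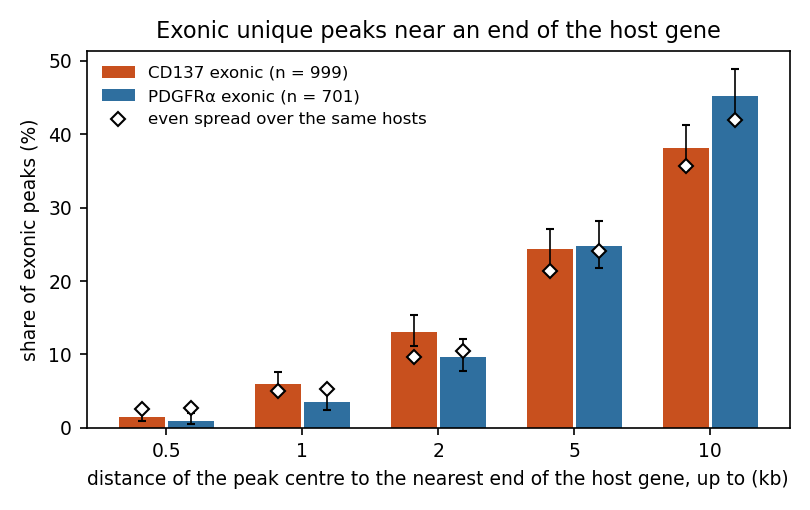
Share of exonic peaks (vertical axis, percent) whose centre lies within a given distance of either end of the host gene, for CD137 and PDGFRα, with Wilson 95% intervals as bars; diamonds mark the share for positions spread evenly over the same spans. Within 1 kb the CD137 share is 6.01% and the PDGFRα share 3.57%, while within 5 kb they are 24.3% and 24.8% and within 10 kb 38.1% and 45.2%.

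Strand was known for the hosts of 774 CD137 and 563 PDGFRα exonic peaks. Within 1 kb of the 5′ end lay 30 CD137 and 11 PDGFRα peaks, a difference of 1.92 points (0.0250 to 3.74). Within 1 kb of the 3′ end lay 17 CD137 and 8 PDGFRα peaks, a difference of 0.775 points (-0.811 to 2.25). Prrx2, a limb homeobox gene, gives an example at the 5′ end, with a peak centred 0.738 kb from it over an annotated start. Fbln2, which encodes the matrix protein fibulin 2, and Klf13, a Krüppel-like transcription factor gene, had peaks 2.20 kb and 1.23 kb from the 3′ end.

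Exonic peaks crowded toward the 3′ part of their hosts in both lists. With each host divided into 5 equal segments from the 5′ end, the segments held 108, 110, 147, 184 and 225 of the 774 CD137 exonic peaks and 76, 89, 109, 127 and 162 of the 563 PDGFRα ones. The segment at the 3′ end thus held 29.1% of CD137 (26.0 to 32.4) and 28.8% of PDGFRα exonic peaks (25.2 to 32.6), a difference of 0.295 points (-4.66 to 5.17). The same segment held 14.6% of the CD137 intronic peaks, so the exonic share was 14.5 points above it (11.1 to 17.9). In the PDGFRα list the same difference was 13.9 points (9.97 to 18.1). Where the exons of each host lie was not analysed here, so these shares are not set against exon density.

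**Figure D2:**
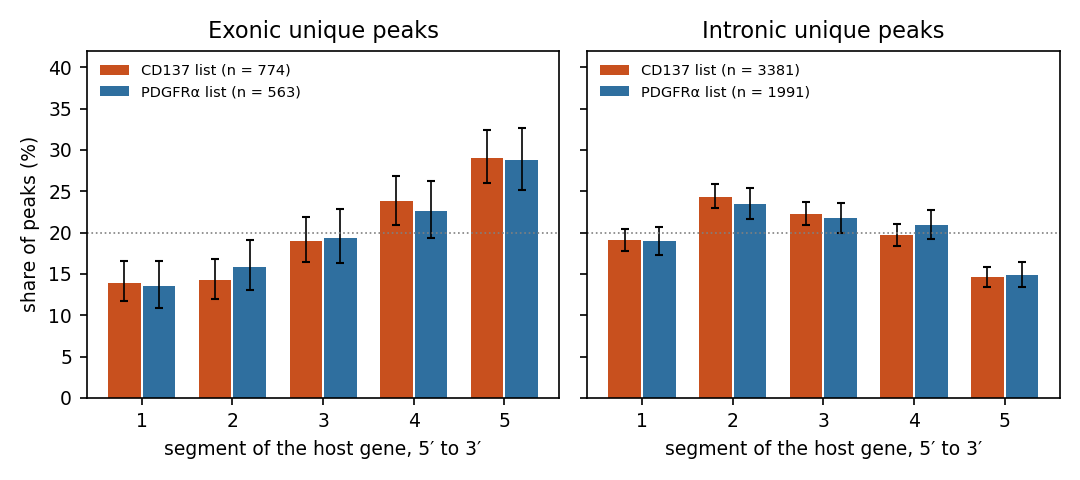
Share of peaks (vertical axis, percent, with Wilson 95% intervals) in each of 5 equal segments of the host gene from the 5′ to the 3′ end (horizontal axis), for exonic peaks (left) and intronic peaks (right) of the CD137 and PDGFRα lists; the dotted line marks an equal share. Exonic shares climb to 29.1% (CD137) and 28.8% (PDGFRα) in the segment at the 3′ end, where intronic shares are 14.6% and 14.9%.

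**Figure D3:**
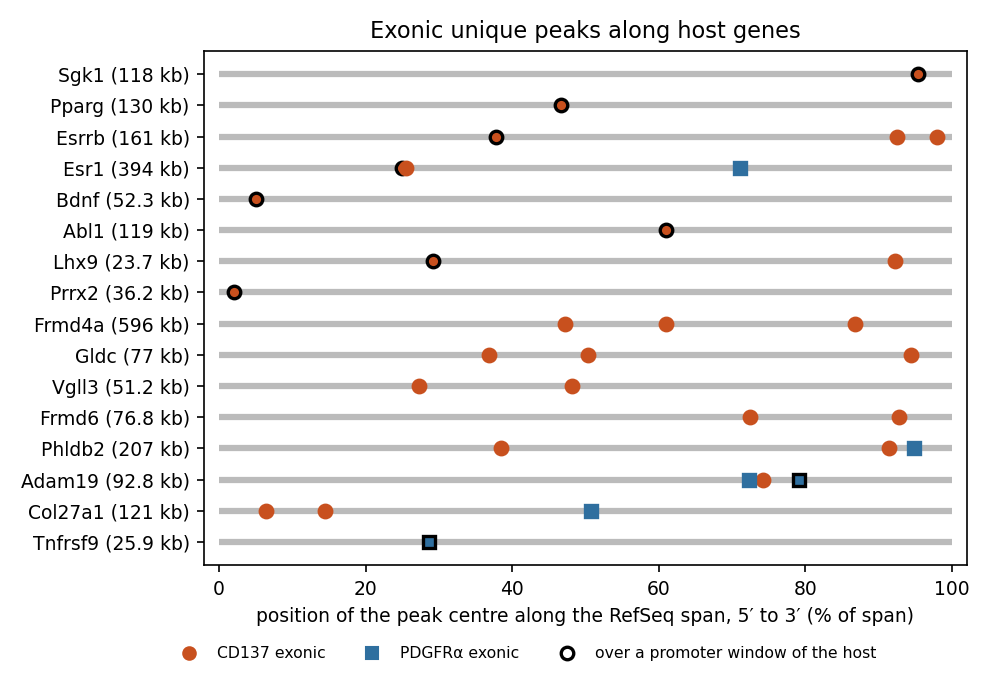
Position of exonic unique peaks in named host genes (rows, with the span in kb), as percent of the RefSeq span from 5′ to 3′ (horizontal axis), with circles for CD137 and squares for PDGFRα peaks and a black rim where the peak overlaps a promoter window of its host. The rimmed circles of Sgk1 and Pparg lie at 95.4% and 46.7% of the span, and Tnfrsf9 has a PDGFRα square only.

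Exonic peaks overlapped promoter windows more often in the CD137 list, an order not shared by intronic, up5k and intergenic peaks. A RefSeq promoter window was overlapped by 116 of 1038 CD137 exonic peaks, 11.2% (9.40 to 13.2), and by 57 of 730 PDGFRα exonic peaks, 7.81% (6.08 to 9.98). The difference was 3.37 points (0.560 to 6.06). A whole window lay inside 9.83% of CD137 and 5.89% of PDGFRα exonic peaks, a difference of 3.94 points (1.37 to 6.40). Intronic peaks overlapped one in 0.807% of cases in the CD137 list and 0.893% in the PDGFRα list. The window belonged to the host itself for 96 of the 116 CD137 peaks and for 42 of the 57 PDGFRα peaks. Strand was known for the hosts of 106 CD137 peaks over a window of any gene. Of these, 89 lay more than 1 kb from the 5′ end of the host, and so did 38 of 48 in the PDGFRα list. The window table holds no window on chromosome 18, so the 42 CD137 and 10 PDGFRα exonic peaks there could not meet one. Windows are missing elsewhere too, as only 17492 of 21887 protein-coding genes had one. Hosts with a window held 774 of the 999 CD137 and 563 of the 701 PDGFRα exonic peaks inside a gene. Peaks at the other hosts could not meet a window of their host, so the shares above may be too low.

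The windows in CD137 exonic peaks were close to the average window in base composition. Their median GC content was 54.3% (139 windows), against 56.0% in PDGFRα exonic peaks (62 windows) and 52.7% over all 32851 windows. The median ratio of observed to expected CpG was 0.408 for CD137, 0.370 for PDGFRα and 0.384 over all windows, while windows in CD137 up5k peaks had 0.593. The CCAAT box was the motif farthest from its background, in 17.99% of CD137 windows (12.5 to 25.2), 25.8% of PDGFRα windows (16.6 to 37.9) and 37.4% of all windows. In windows of up5k peaks its share was also below that of all windows, at 31.1% for CD137 (26.4 to 36.3) and 27.3% for PDGFRα (22.0 to 33.3). The glucocorticoid receptor arm AGAACA was in 21.6% of CD137 windows (15.6 to 29.1), 16.1% of PDGFRα windows (9.004 to 27.2) and 19.0% of all. Whole receptor sites were not counted. The TEAD motif was in 16.5% of CD137, 11.3% of PDGFRα and 14.7% of all windows, and AP-1 in 9.35%, 11.3% and 7.81% of the same sets. For GC boxes the shares were 39.6%, 40.3% and 35.7%, and for TATA boxes 12.2%, 8.06% and 13.6%.

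The median widths of the exonic peaks had overlapping intervals. The median was 1278 bp in the CD137 list (1248 to 1299) and 1289 bp in the PDGFRα list (1264 to 1320). CD137 exonic peaks ranged from 540 to 7102 bp and PDGFRα ones from 711 to 5453 bp. At least 2 kb wide were 74 CD137 (7.13%) and 58 PDGFRα exonic peaks (7.95%), a difference of -0.816 points (-3.42 to 1.64). Within the CD137 list the median exonic peak was wider than the median intronic peak of 1223 bp (1214 to 1234), and near the 1285 bp of up5k and 1302 bp of down5k peaks. CD137 exonic peaks over a promoter window had a median of 1417.5 bp (1347 to 1523), against 1260.5 bp (1232 to 1290) for those over none. For PDGFRα exonic peaks the medians were 1387 bp (1179 to 1572) and 1287 bp (1262 to 1312), with overlapping intervals. A wider peak has more room to meet a window, and the part of this in the medians was not tested.

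**Figure D4:**
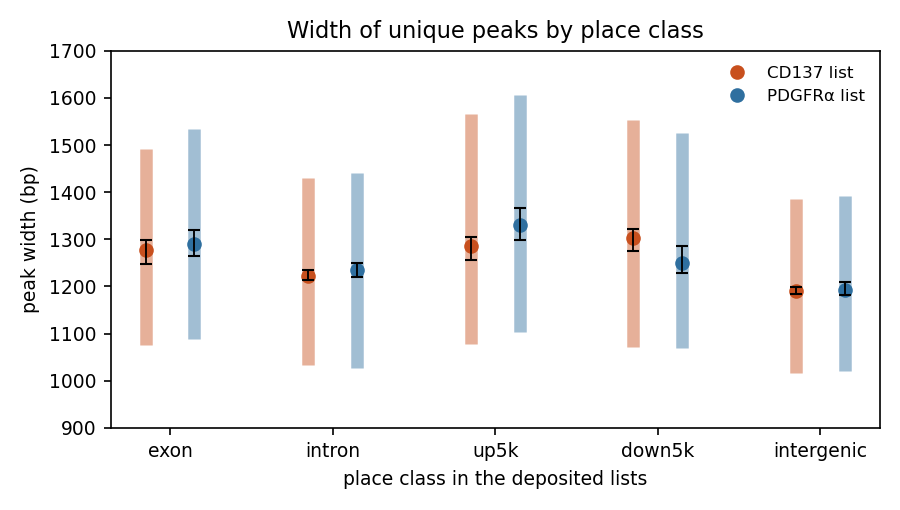
Width of unique peaks (vertical axis, bp, which does not start at 0) by place class for the CD137 and PDGFRα lists, with points at the median, black bars for its 95% interval and pale bars for the interquartile range. The exonic medians of 1278 bp (CD137) and 1289 bp (PDGFRα) have overlapping intervals, and the CD137 exonic median lies above the CD137 intronic median of 1223 bp.

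The widest CD137 exonic peak lay at Sgk1. This peak (chr10:21990919-21998021, ENSMUSG00000019970) covered 7102 bp and all 3 of the gene's windows printed above, 112 kb from the 5′ end of a span of 118 kb. Dlc1, a GTPase activating protein, had the next at 6673 bp, 43.8 kb from the nearest end. It overlapped no window of another gene, and the RefSeq windows used here hold none of Dlc1 itself. Arid5b, a DNA-binding protein active in fat, followed at 4731 bp, then Tns1 (tensin 1, a focal adhesion protein) at 4177 bp and Cyth3 (a guanine nucleotide exchange factor) at 3761 bp. Bdnf had 3552 bp. The seventh-widest peak had a host known only by a clone name and is left out, and the next were at Tbc1d16 (3288 bp), Rap1gap (3230 bp), Btbd3 (3153 bp) and the kinase gene Abl1 (3145 bp). Of the 10 peaks named, those of Sgk1, Bdnf, Rap1gap, Btbd3 and Abl1 overlapped a promoter window of their host. Dlc1 and Tbc1d16 have no window among those used, so their peaks could not meet one of their host. The widest PDGFRα exonic peaks lay at Slc6a17 (5453 bp), Pmp22 (4566 bp), Sh3pxd2a (3733 bp), Rbpms (3654 bp) and Dbn1 (3520 bp).

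Genes named by the study's labels had few exonic peaks. Tnfrsf9 had no CD137 peak and 1 PDGFRα exonic peak of 1024 bp, over the internal start printed above. Pdgfra had 0 unique peaks of any class, and Tead1 and the glucocorticoid receptor gene Nr3c1 had no exonic one. Peaks called in both libraries may be left out of the lists, so these counts do not rank the markers' accessibility.

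Gene lists were read against all protein-coding genes, of which 4.29% had a CD137 exonic peak and 3.04% a PDGFRα one, inside or within 5 kb. Over all lists together, 63 of 666 genes had a CD137 exonic peak and 40 a PDGFRα one, or 9.46% and 6.01%. The median gene length of a list ran between 4.51 kb for housekeeping and 487 kb for neuronal genes, and its part in these counts was not tested.

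Of the glucocorticoid response list, 4 of 36 genes had a CD137 exonic peak and none a PDGFRα one. With peaks of every class these genes had 19 in the CD137 list of 14483 peaks and 13 in the PDGFRα list of 8002. Their absence from the PDGFRα list thus holds for exonic peaks only. Those with an exonic peak were Sgk1, the clock gene Per2 (1547 bp), Klf13 (1434 bp) and Fkbp5 (1183 bp), a chaperone of the glucocorticoid receptor. The Fkbp5 peak lay 0.096 kb from a PDGFRα peak of another class. Of the Hippo and TEAD list, 4 of 33 genes had a CD137 exonic peak: Vgll3, a TEAD cofactor, with peaks of 2898 and 1543 bp, Frmd6 with 1440 and 1634 bp, and the large cadherins Fat1 and Fat4. The PDGFRα list had 2, the LIM proteins Ajuba and Limd1.

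In the adipocyte list 1 of 40 genes had a CD137 exonic peak, Pparg, and 3 had a PDGFRα one: the lipid synthesis regulator Mlxipl, acetyl-CoA carboxylase Acaca and the lipid droplet protein gene Plin1. The Pparg peak (chr6:115420291-115422506, ENSMUSG00000000440) was 2215 bp wide, and the gene had 3 CD137 and no PDGFRα unique peaks of any class. In the beige and thermogenic list 3 of 28 genes had a CD137 exonic peak (Esrrb, the potassium channel gene Kcnk3 and the fatty acid transporter gene Slc27a1), and 3 a PDGFRα one (Hoxc9, Ppara and Tnfrsf9). White fat regulators had 0 of 22 in the CD137 list and 1 in the PDGFRα list, which is Hoxc9 again with the same peak. DNA methylation genes had 0 of 19 in both, and immediate early genes 0 of 40 in the CD137 list and 1, Egr4, in the PDGFRα list.

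Collagen chains had 7 of 44 genes in each list, with Col27a1 in both. Of the laminin, integrin and basement membrane list, 9 of 43 genes had a CD137 exonic peak and 7 a PDGFRα one, with 3 in both, among them Lama2 and Tln2. Matrix and TGF-β genes had 5 of 46 in the CD137 list, among them Ltbp2 with 2 peaks, and 2 in the PDGFRα list (Smad3 and Ltbp4). Stromal progenitor genes had 3 of 28 in the CD137 list (Fgf2, Fgf10 and Itgb1) and 0 in the PDGFRα list. Wnt and BMP genes had 5 of 64 in the CD137 list and 2, Wnt5b and Bmpr1b, in both. Forkhead and Sox genes had 4 of 42 in the CD137 list (Sox5, Foxp4, Foxn1 and Foxp2) and 2 in the PDGFRα list. Hox and limb homeobox genes had 5 of 66 in the CD137 list, Lhx9 with 2 peaks, and 3 in the PDGFRα list, Hoxc9 again among them.

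Markers of other cell types were found in both lists, and their part in these results was not tested. The CD137 list holds 14483 peaks and the PDGFRα list 8002, so equal counts of peaks of every class are not equal shares. Endothelial genes had 0 of 20 in the CD137 list and 4 in the PDGFRα list, among them the receptors Flt4 and Kdr. With peaks of every class they had 10 CD137 and 11 PDGFRα peaks. Mesothelial genes had 0 of 15 in the CD137 list and 3 in the PDGFRα list (Krt7, Upk1b and Lrrn4), against 5 CD137 and 6 PDGFRα peaks of every class. Smooth muscle and pericyte genes had 3 of 19 in the CD137 list (Tpm1, Cspg4 and Synpo2) and 0 in the PDGFRα list, against 6 CD137 and 7 PDGFRα peaks of every class. Neuronal genes, whose median span is 487 kb, had 6 of 22 in the CD137 list and 1 in the PDGFRα list, with 84 CD137 and 45 PDGFRα peaks of every class. Immune genes had 2 of 24 in the CD137 list, among them the macrophage receptor gene Mrc1, and 1 in the PDGFRα list, with 2 CD137 and 5 PDGFRα peaks of every class. Early embryo genes had 3 of 22 in the CD137 list (Esrrb, Gata4 and the zona pellucida gene Zp3) and 0 in the PDGFRα list. With peaks of every class these genes had 8 in the CD137 list, 5 of them at Esrrb, and 1 in the PDGFRα list. Housekeeping genes had 1 of 19 in the CD137 list, Ncl, and 0 in the PDGFRα list.

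**Figure D5:**
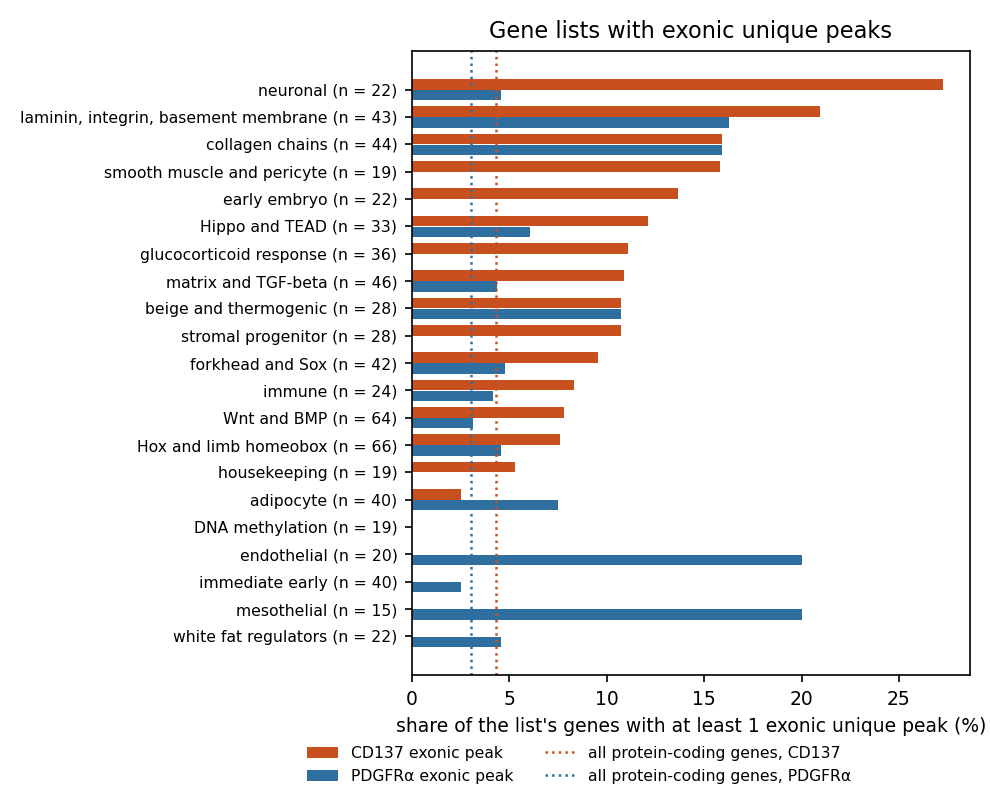
Share of each list's genes with at least 1 exonic unique peak (horizontal axis, percent), CD137 above PDGFRα, with dotted lines at the shares over all protein-coding genes (4.29% and 3.04%). Neuronal genes have the highest CD137 share (6 of 22), and endothelial and mesothelial genes have exonic peaks of the PDGFRα list, although CD137 peaks of other classes lie at genes of both lists.

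RefSeq microRNAs lay in 4 CD137 and 2 PDGFRα exonic peaks, among 1005 hairpins on record. The mature sequences in the CD137 peaks are shown with the seed, bases 2 to 8, in capitals. They come from the hosts Abcc4, Aldh4a1, Dnaja4 and Lpp, and the one at Lpp lies only partly in its peak. No seed is shared among them, and the peak lists say nothing of their expression.
mmu-miR-6391 (Abcc4): uGAGGCACgggaggacaaugu
mmu-miR-7020-5p (Aldh4a1): uGGGAUGGuggagagggugaccag
mmu-miR-7020-3p (Aldh4a1): aACCCCUCucuucucucccag
mmu-miR-5710 (Dnaja4): uCUUGGGAcauaguguaaggca
mmu-miR-28a-3p (Lpp): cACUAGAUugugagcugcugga

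An exonic peak of each list was found at 80 Ensembl IDs, 8.33% of the 960 CD137 and 11.7% of the 684 PDGFRα IDs. By position, 77 genes held both. They were 8.29% of the 929 CD137 hosts, where 3.04% of all protein-coding genes had a PDGFRα exonic peak. The part of gene length in this was not tested. The closest CD137 and PDGFRα exonic peaks in a gene were a median of 22.3 kb apart (0.035 to 302 kb). In 26 of the 77 genes they lay within 10 kb, the nearest at Ppp1r12b, a myosin phosphatase subunit gene. At Adam19, a metalloprotease gene, they lay 0.443 kb apart. Esr1, the oestrogen receptor α gene, had 2 CD137 exonic peaks of 1587 and 1534 bp near 25% of its span and 1 PDGFRα exonic peak of 1419 bp at 71.1%. The cytoskeletal giants Syne2 and Macf1 also held both.

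Many hosts had further unique peaks. Of the 960 CD137 IDs, 436 (45.4%) also had a CD137 peak of another class, 365 (38.0%) had a PDGFRα peak of any class, and 393 (40.9%) had only CD137 exonic peaks. Of the 684 PDGFRα IDs, 225 (32.9%) had a PDGFRα peak of another class and 302 (44.2%) a CD137 peak of any class. Only PDGFRα exonic peaks were found at 301 of them (44.0%). These shares also depend on the lengths of the lists. Another CD137 peak lay within 10 kb of 13.1% of CD137 exonic peaks and of 15.6% of the other CD137 peaks, a difference of -2.45 points (-4.47 to -0.179). A PDGFRα peak lay within 10 kb of 12.3% of CD137 exonic peaks and of 10.1% of the other CD137 peaks, a difference of 2.25 points (0.312 to 4.44).

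By chromosome, the exonic share of the CD137 list ran between 4.28% on chromosome 14 and 12.2% on chromosome 7. It was above the PDGFRα share on chromosomes 2, 8, 18 and X and below it on the others. On chromosome 18 it was higher, at 7.46% (42 of 563) against 3.66% (10 of 273), a difference of 3.80 points (0.294 to 6.77). On chromosome 19 it was 6.04% against 12.8%, a difference of -6.81 points (-12.3 to -2.05). Chromosomes 18 and 19 have the largest difference in each direction and are given for that reason. The intervals are not adjusted for the number of chromosomes.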

How the data were processed

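The deposited files are 1 list of unique peaks per library, made by the authors. Per the file headers, each row has a chromosome, start, end, Ensembl gene ID and place class. Its values are positions, with no height, score or read number. Per the submitters' processing notes, the build was mm10 and CASAVA 1.8 was used. Not given in the sources used here are the peak caller, threshold, uniqueness rule and start base. The members and the gene lists were chosen with earlier results of these data known.

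A peak was given to the RefSeq protein-coding gene (GRCm38.p6) holding its centre, or else the nearest within 5 kb. Symbols were linked to 6124 of 7163 Ensembl IDs, each where 80% or more of the ID's peaks fell at 1 gene. Strand came from RefSeq promoter windows. No exonic peak was identical in both lists. Shares carry Wilson, and differences Newcombe, 95% intervals, and shares of both lists' exonic peaks from the CD137 list Wilson intervals. Intervals of median widths come from order statistics. Wide means at least 2 kb and neighbouring within 10 kb.

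Genes named in the text are those of the labels (Tnfrsf9, Pdgfra, Tead1, Nr3c1), hosts of the 10 widest CD137 and 5 widest PDGFRα exonic peaks whose host has more than a clone name, hosts with the most exonic peaks, hosts in both lists and up to 4 CD137 and 3 PDGFRα members per gene list. A gene picked by this rule is not reported here. Ppp1r12b, Abcc4, Aldh4a1, Dnaja4 and Lpp were named after their values were seen. Assignment and intervals were tested on simulated data. Figures used matplotlib 3.10.9, and computations scipy 1.17.1, pandas 2.3.3 and numpy 2.4.6 under Python 3.11.15.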

Additional observations from a re-analysis of the deposited data

How the results depend on the processing

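Of 32 alternatives, 25 kept the direction and stayed inside the 95% interval of the reported value, or for counts within 1.5 times of it, 5 moved and 2 reversed. That interval is wide for the near-end difference, so 0.503 points within 0.5 kb and 0.618 points for peaks over an end are among the 25. The exonic difference of CD137 minus PDGFRα was -2.89 points among exonic and intronic peaks together, and 0.186 points with each Ensembl ID counted once, the opposite direction. The cause was not tested. The near-end difference was -0.497 points within 5 kb, also the opposite direction, and 2.10 points with the host taken from the linked symbol, with an interval that includes 0. Any PDGFRα peak, in place of an exonic one, was found at 365 of the IDs with a CD137 exonic peak. Neighbouring CD137 peaks lay within 5 kb of 5.97% and within 50 kb of 54.9% of CD137 exonic peaks, and 16.9% of CD137 exonic peaks lay in the last of 10 equal segments of the host, since those alternatives change the distance or the stretch counted. Leaving out chromosome 18 or chromosome 7, the promoter-window peaks, or the Sgk1 peak was chosen after seeing the data and moved no value past these limits. The same holds for counting windows of the host gene alone and for hosts of at least 20 kb. The last of 10 segments was also chosen after seeing the data and is among the 5 that moved. No paired analysis was possible because each population has 1 library. Depth is unknown, so a missing unique peak may be a site open in both populations, in neither, or under the threshold.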
